A study of Homo sapiens with 6 samples.

Results

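Sciellin (SCEL), periplakin (PPL), envoplakin (EVPL) and cystatin A (CSTA) are precursors of the cornified envelope, and they were followed here in a colorectal cancer line in which CDO1 was overexpressed. All 4 genes were found by symbol among the 27134 genes measured, and they were chosen because of how they differed between these same libraries. Their values are therefore a description, without a test. RNA was sequenced from KM12, an established human colon cancer line, at passages 10 to 15. One group of 3 libraries carried CDO1 overexpression and the other group of 3 was the mock control. CDO1 encodes cysteine dioxygenase, which oxidises cysteine to cysteine sulfinate. How CDO1 was introduced, and whether the cells were 1 clone, is not given in the sources used here.

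Reads assigned to genes totalled 17516640 to 22198173 per library. CDO1 stood at 2333 to 2484 normalised counts in the CDO1 libraries, at 68.1 in mock replicate 1 and at 0 in mock replicates 2 and 3. A normalised count is the number of reads divided by the library's size factor. The labels do not name separate cultures for the replicates, so the p-values cover only the variation among these 6 libraries, possibly technical.

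The cornified envelope is the cross-linked protein shell that replaces the plasma membrane of terminally differentiated squamous cells. Envoplakin and periplakin form heteromers beneath the membrane and start the scaffold, and transglutaminases then bind involucrin, loricrin, small proline-rich proteins, sciellin and cystatin A into it. In simple epithelia the plakins are known as linkers between keratin filaments and desmosomes, and envelopes are not formed. Cystatin A inhibits cysteine cathepsins, and sciellin is a repeat protein with a LIM domain.

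The promoter of SCEL is shown because SCEL was one of the members that were higher with CDO1 and its entry was in the promoter table used. SCEL (ENSG00000136155) lies on the plus strand of chromosome 13, from 77535674 to 77645263 in GRCh38 (GENCODE release 29). The sequence below is the RefSeq promoter window (GRCh38.p14, plus strand, chr13:77535456-77535673), stopped before the first exon base in GENCODE, with the AP-1 motif in capitals.
SCEL promoter: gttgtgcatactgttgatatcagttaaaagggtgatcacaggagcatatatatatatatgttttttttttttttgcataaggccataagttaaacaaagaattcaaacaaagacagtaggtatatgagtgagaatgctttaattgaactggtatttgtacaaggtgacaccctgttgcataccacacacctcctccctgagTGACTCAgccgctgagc
The full window of 300 bases was searched on both strands. The AP-1 motif TGANTCA occurs once, 49 bases before the RefSeq start, and 7.71% of 35116 promoters of the same length hold it. The same bases begin a match to the antioxidant response element core TGACNNNGC, which 13.3% of promoters hold, so the 2 matches overlap. The CDX motif TTTATN occurs once, after the start, and is held by 34.8% of promoters. No match was found to the HNF4A motif CAAAGTCCA (0.384% of promoters), to the KLF motif GGGNGTGG (17.2%) or to the TATA box TATAAA (11.5%). The letters AACCNGGTT, searched for grainyhead factors, were also absent (0.239% of promoters). That pattern requires a free base, N, between AACC and GGTT, and forms without this base were not searched. Whether the window holds a grainyhead site of such a form was therefore not tested. A match describes letters in this window and does not show a bound site.

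The 4 genes did not move together. SCEL and PPL were higher with CDO1, CSTA was lower, and EVPL lay within the spread of the libraries. With limma at an adjusted p of 0.05, 2 of the 4 were called higher and 1 lower, where 24.0% of 21775 genes tested were called in either direction, 11.3% higher and 12.7% lower. For 3 of the 4 the groups stood apart without overlap, against 37.1% of all genes tested, 18.3% higher and 18.9% lower. The genes were picked on this contrast, so nothing is read from these counts. Log2 differences are given as CDO1 minus mock, after 1 was added to each normalised count.

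**Figure D1:**
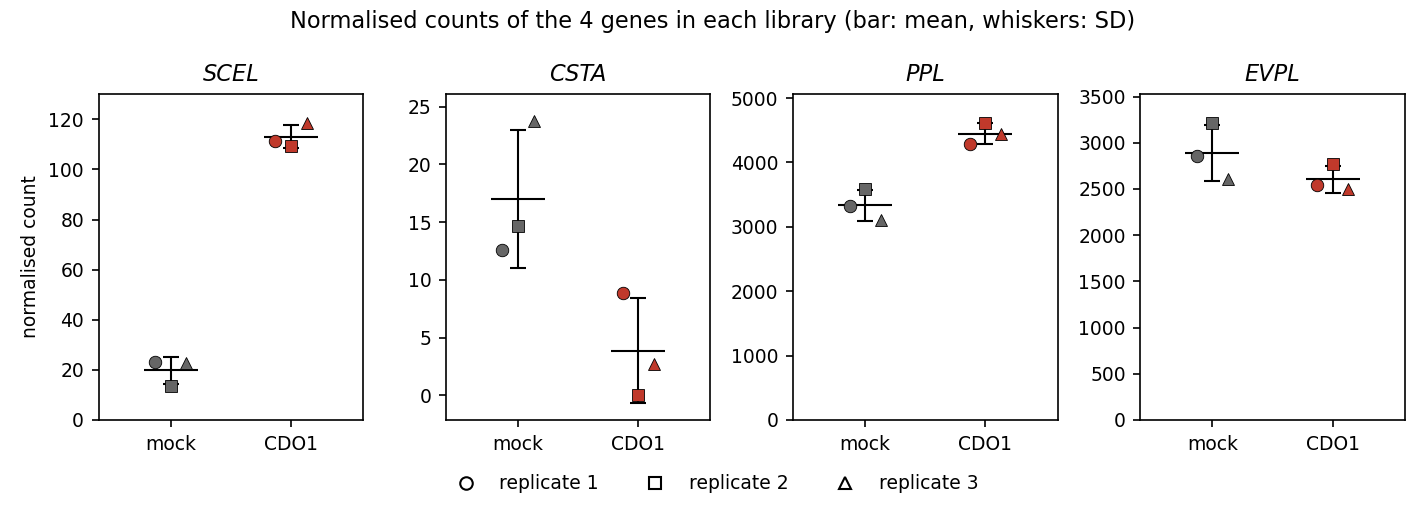
Normalised counts of SCEL, CSTA, PPL and EVPL in the 6 libraries, mock in grey and CDO1 in red with a marker shape per replicate number, with the mean as a bar and the SD as whiskers, each panel on its own linear axis. The groups are apart for SCEL (13.7 to 23.3 against 109 to 118), PPL and CSTA, and they overlap for EVPL.

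The plakins were by far the most abundant of the 4 genes. PPL (ENSG00000118898, chromosome 16, 4882507 to 4960741, minus strand) stood at 3323, 3584 and 3104 normalised counts in mock replicates 1, 2 and 3. In CDO1 replicates 1, 2 and 3 it stood at 4283, 4609 and 4440. Every CDO1 library was above every mock library. The means were 3337 ± 240 and 4444 ± 163 (SD, n = 3), a ratio of 1.33 and a log2 difference of 0.41 ± 0.06 (SE).

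EVPL (ENSG00000167880, chromosome 17, 76004502 to 76027452, minus strand) gave 2852, 3212 and 2610 normalised counts in mock and 2543, 2774 and 2497 with CDO1. CDO1 replicate 2 was above mock replicate 3, so the groups overlapped. The means were 2891 ± 303 and 2605 ± 148 (SD, n = 3), with a log2 difference of -0.15 ± 0.07 (SE). It was -0.07 without mock replicate 2 and -0.22 without mock replicate 3, and in the latter case EVPL was called lower. EVPL is rich in G and C, at 65.0% of its longest transcript, and the libraries differed in how their counts moved with GC content. Over 10926 genes, Spearman's rho of the deviation from the mean with GC was 0.204, 0.523 and -0.237 in mock replicates 1, 2 and 3. In CDO1 replicates 1, 2 and 3 it was -0.336, 0.0028 and -0.275. It varied within both groups and was not balanced between them. The highest values, 0.523 and 0.204, were in mock libraries, while mock replicate 3 lay within the range of the CDO1 libraries. Once the trend with GC was taken out of each library, the log2 difference of EVPL turned to 0.02 and that of PPL became 0.50. EVPL then stood at 2566 to 2649 normalised counts in mock and at 2597 to 2745 with CDO1.

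The transcripts of the heteromer partners differed in balance, with more PPL relative to EVPL in each CDO1 library. The ratio of PPL to EVPL normalised counts was 1.17, 1.12 and 1.19 in mock replicates 1, 2 and 3 and 1.68, 1.66 and 1.78 in CDO1 replicates 1, 2 and 3. The groups did not overlap. Means were 1.16 ± 0.04 and 1.71 ± 0.06 (SD, n = 3). This ratio is taken within a library, so the size factor cancels. On the log2 scale the difference of PPL minus that of EVPL was 0.56, and it was 0.48 with the GC trend removed and 0.53 to 0.58 with any 1 library left out. Per kilobase of exon the ratio was 1.13 ± 0.04 in mock and 1.67 ± 0.06 with CDO1 (SD, n = 3).

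EVPLL, a shorter gene related to EVPL, had 0 to 2.26 normalised counts in every library, so few reads were assigned to it. Other annotated genes overlap a plakin on the other strand without shared exons. SEC14L5, beside PPL, stood at 2.69 to 4.59 normalised counts, CDK3 at 2.93 to 7.92 and TEN1-CDK3 at 5.51 to 14.7, both beside EVPL. None of SEC14L5, CDK3 and TEN1-CDK3 passed the test. Strand use in the counting is not given in the sources used here, and these levels are small beside those of the plakins.

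SCEL was a scarce transcript in mock cells and a moderate one with CDO1. It had 26, 14 and 20 reads in mock replicates 1, 2 and 3 and 113, 100 and 129 in CDO1 replicates 1, 2 and 3. In normalised counts these were 23.3, 13.7 and 22.6 against 111, 109 and 118. The lowest CDO1 library was far above the highest mock library. The ratio of means was 5.70, and the log2 difference of 2.49 ± 0.21 (SE) was the 4th highest of 21775 genes. With any 1 library left out it lay between 2.25 and 2.62. In the authors' deposited table it is 1.77. SCEL-AS1 is annotated on the minus strand within SCEL with shared exon bases, and it was not analysed here, so reads of the 2 strands cannot be told apart.

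CSTA (ENSG00000121552, chromosome 3, 122325244 to 122341972, plus strand) went the other way and rests on few reads. It had 14, 15 and 21 reads in mock replicates 1, 2 and 3, a total of 50, and 9, 0 and 3 in CDO1 replicates 1, 2 and 3, a total of 12. The normalised counts were 12.5, 14.6 and 23.8 against 8.87, 0 and 2.76. The groups did not overlap, but the gap was small, between 12.5 in mock replicate 1 and 8.87 in CDO1 replicate 1. A count of 0 in CDO1 replicate 2 allows up to 3 reads, or 3.28 normalised counts, for counting error only. Means were 17.0 ± 5.96 and 3.88 ± 4.54 (SD, n = 3), 4.38-fold lower with CDO1.

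The size of the CSTA difference depends on single libraries and on the scale. The log2 difference was -2.38 ± 0.60 (SE), the 10th lowest of all genes tested. It was -1.51 without CDO1 replicate 2 and -3.16 without CDO1 replicate 1. On recovered reads it was -2.03 in edgeR with TMM, -2.04 with RLE and -2.10 in DESeq2. With a pseudocount of 5 it was -1.40, and the authors' deposited table, whose fold changes are moderated, gives -0.55. All of these values are negative.

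**Figure D2:**
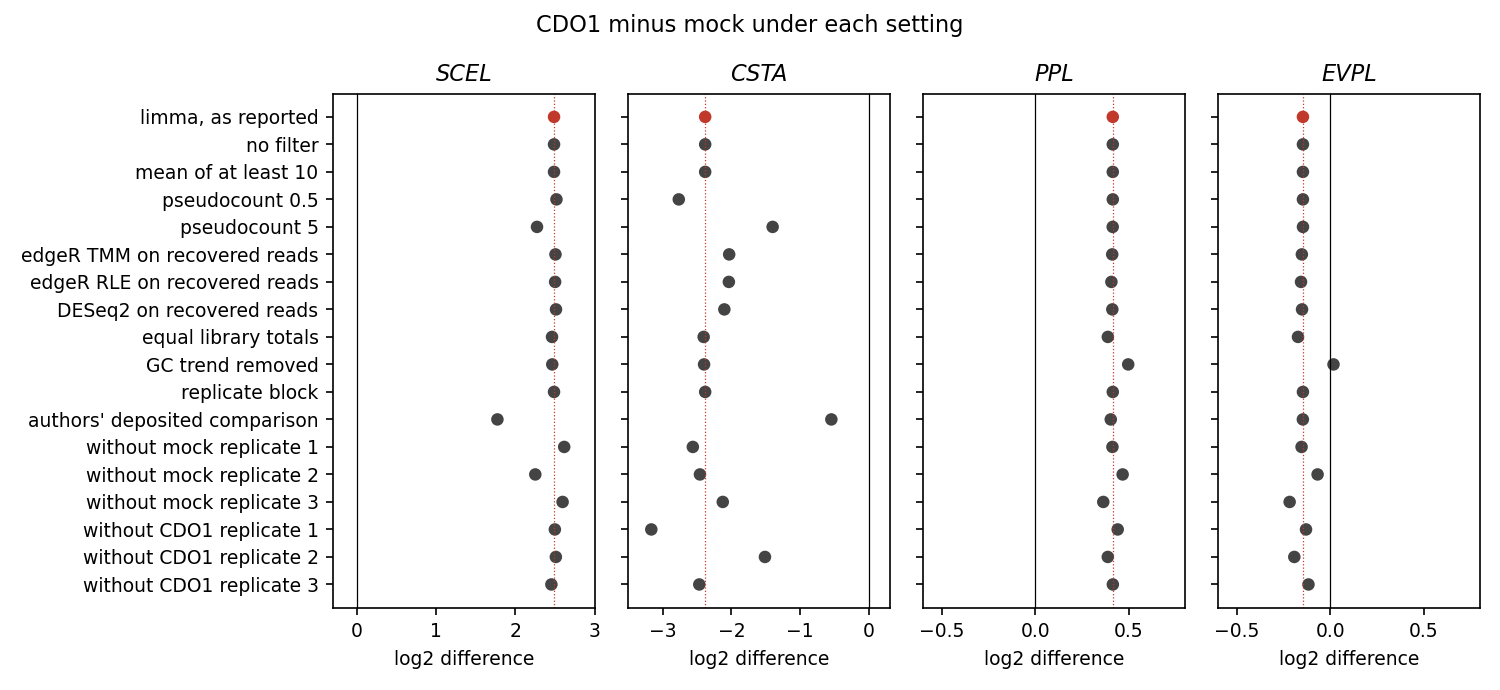
Log2 difference (CDO1 minus mock) of SCEL, CSTA, PPL and EVPL as reported (red) and under 17 other settings (dark points), with a line at 0. SCEL and PPL lie above 0 and CSTA below 0 in every setting, and EVPL moves from -0.15 to 0.02 when the GC trend is removed.

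Per kilobase of exon, the 4 genes fell into 2 tiers. In mock cells PPL stood at 434 and EVPL at 385 normalised counts per kilobase, above 89.3% and 87.9% of 21564 genes. SCEL was at 4.72, above 26.6% of genes, and CSTA at 12.4, above 39.2%. With CDO1 PPL reached 578 and EVPL 347, SCEL stood above 49.3% of genes at 26.9, and CSTA stood above 21.1% at 2.82. The order of SCEL and CSTA was thus reversed between the groups. In mock replicate 1 SCEL was at 5.54 and CSTA at 9.14 per kilobase, and in CDO1 replicate 1 they were at 26.5 and 6.46.

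**Figure D3:**
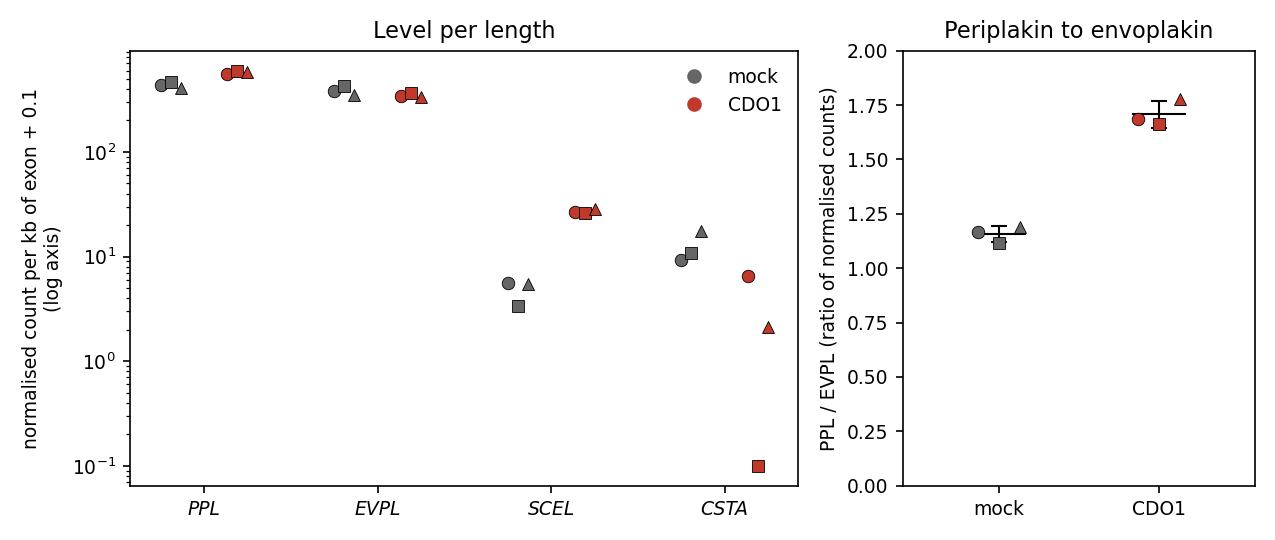
Left, normalised count per kilobase of exon plus 0.1 on a log axis for the 4 genes in the 6 libraries, mock in grey and CDO1 in red. Right, the ratio of PPL to EVPL per library with mean and SD, from 1.12 to 1.19 in mock and from 1.66 to 1.78 with CDO1.

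The remaining envelope proteins showed a mixed picture, and several of the classical cornified ones were at or near 0. Of 48 other precursors and envelope-bound proteins listed, 16 had a value here and 11 reached a mean of 1 normalised count. Of those 11, 5 rose, 3 fell and 3 did not pass, with a median log2 difference of 0.30 against -0.00348 over all genes tested. The called share was 72.7%, against 24.0% of all genes tested (11.3% higher and 12.7% lower). IVL, which encodes involucrin, had 1 read in each of mock replicates 1 and 3 and 0 in every other library. The late envelope genes RPTN, LCE1C and FLG2 had at most 2 reads in any library, while FLG, the filaggrin precursor, was at 66.2 ± 14.5 in mock and 80.9 ± 10.3 with CDO1 (SD, n = 3; adjusted p = 0.248 in limma). LORICRIN was not analysed here.

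The abundant annexin-system proteins of the envelope went in opposite directions. S100A10, an S100 family partner of annexin A2, stood at 5602, 5211 and 6032 normalised counts in mock and at 9718, 9879 and 9595 with CDO1. It rose 1.73-fold (adjusted p = 9.34e-10 in limma), with no overlap of the groups. S100A11 rose 1.19-fold, from 1923 ± 70.7 to 2296 ± 134 (SD, n = 3; adjusted p = 0.00237). ANXA1, the phospholipid-binding annexin A1, fell 1.33-fold, from 6774 ± 489 to 5096 ± 475 (SD, n = 3; adjusted p = 7.27e-05).

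DMKN and CST6 had the largest falls among these proteins. DMKN, the secreted epidermal protein dermokine, stood at 861, 871 and 902 normalised counts in mock and at 303, 345 and 273 with CDO1. It fell 2.86-fold (adjusted p = 3.73e-11 in limma). HRNR, which encodes the filaggrin-like repeat protein hornerin, rose from 21.3 ± 3.84 to 42.8 ± 12.3 (SD, n = 3; adjusted p = 0.00807), with CDO1 replicate 2 the highest at 56.9. Without that library its adjusted p was 0.0738. PI3, the elastase inhibitor elafin, was scarce, at 5.65 ± 1.54 against 14.7 ± 3.88 (SD, n = 3; adjusted p = 0.0222), and it did not pass without CDO1 replicate 1 (0.119), CDO1 replicate 2 (0.0617) or mock replicate 2 (0.082). Hornerin, filaggrin and related genes carry long repeats and may exchange reads.

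Of the enzymes that cross-link the envelope, only TGM1 was called. Of 8 transglutaminase genes listed, 5 had a value and 4 were tested. The called share of 25% is near the 24.0% of all genes tested. TGM1, the membrane-bound keratinocyte enzyme, stood at 87.8, 67.3 and 71.3 normalised counts in mock and at 99.6, 112 and 103 with CDO1. The groups did not overlap, and the rise was 1.39-fold (adjusted p = 0.0214 in limma). The call is narrow: leaving out mock replicate 2 gave an adjusted p of 0.0732, mock replicate 3 one of 0.0505, CDO1 replicate 2 one of 0.0864 and CDO1 replicate 3 one of 0.0556, and DESeq2 gave 0.089. TGM3 was at 5.14 ± 2.90 and 11.2 ± 2.46 (SD, n = 3; adjusted p = 0.0835), TGM4 at 0.676 ± 0.597 and 2.31 ± 0.404 (adjusted p = 0.266), and TGM2, the widely expressed tissue enzyme, at 240 ± 31.9 and 197 ± 19.5 (adjusted p = 0.077). TGM2 was called lower without mock replicate 3 (adjusted p = 0.0324) and in edgeR with RLE size factors (0.0454).

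Among the other plakins, EPPK1 stood out. EPPK1, which encodes the keratin-binding epiplakin, was at 589, 705 and 488 normalised counts in mock and at 302, 353 and 313 with CDO1, a fall of 1.84-fold (adjusted p = 2.67e-06 in limma). Of 6 other plakin genes tested, EPPK1 fell and 5 did not pass, so 16.7% were called against 24.0% of all genes tested. DSP, the desmosomal desmoplakin, was at 6300 ± 47.5 and 6583 ± 193 (SD, n = 3; adjusted p = 0.394). PLEC, encoding plectin, was at 18810 ± 2257 and 18122 ± 1183 (adjusted p = 0.682), DST at 3048 ± 23.7 and 2855 ± 139 (adjusted p = 0.213) and MACF1 at 3338 ± 104 and 3556 ± 107 (adjusted p = 0.223). With the GC trend removed PLEC was called higher (log2 difference 0.15) and DST lower (-0.12), so the direction of PLEC flips with that scaling.

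The proteins to which plakins attach also split. Of 14 desmosomal and keratin partners tested, 4 rose, 3 fell and 7 did not pass, with a median log2 difference of 0.13. The called share was 50%, against 24.0% of all genes tested. With the GC trend removed 6 rose and 3 fell, because PKP3 and JUP were also called higher (log2 differences 0.33 and 0.23). Both were called higher without mock replicate 2 as well. PKP2, a plakophilin that binds desmoplakin, rose 1.67-fold, from 2118 ± 46.1 to 3532 ± 66.6 (SD, n = 3; adjusted p = 9.41e-10 in limma). The simple-epithelial keratin pair KRT18 and KRT8 rose 1.57-fold and 1.41-fold. DSC3, a desmosomal cadherin typical of stratified epithelia, fell 2.70-fold, from 367 ± 20.6 to 136 ± 14.9 (SD, n = 3; adjusted p = 1.68e-09), and DSC2 fell 1.66-fold. KAZN, whose product kazrin binds periplakin, fell 1.58-fold, from 289 ± 19.3 to 183 ± 16.3 (SD, n = 3; adjusted p = 3.93e-05). DSG2, the desmoglein of simple epithelia, had a small rise of 1.11-fold (adjusted p = 0.0347) that did not pass with equal library totals (0.0819), without mock replicate 1 (0.128), without mock replicate 2 (0.0954), without CDO1 replicate 1 (0.12) or without CDO1 replicate 3 (0.171).

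CSTA was compared with its relatives, the other cystatins. Of 6 tested, 1 rose, 1 fell and 4 did not pass, so 33.3% were called against 24.0% of all genes tested. The 1 that rose, CSTB, and the 1 that fell, CST6, were also counted among the envelope proteins. CSTB, the cytosolic stefin B and closest relative of CSTA, stood at 3174, 3461 and 3426 normalised counts in mock and 3876, 4654 and 4316 with CDO1, a rise of 1.28-fold (adjusted p = 0.000243 in limma). CST6, the secreted cystatin M/E of the epidermis, which inhibits legumain and cathepsins, stood at 368, 371 and 381 in mock and 140, 149 and 141 with CDO1. It fell 2.61-fold (adjusted p = 5.88e-10). CST3, the abundant secreted cystatin C, was at 3546 ± 209 and 3497 ± 145 (SD, n = 3; adjusted p = 0.853). CST7 was at 915 ± 34.9 and 999 ± 123, CST1 at 38.7 ± 5.81 and 47.4 ± 0.673 and CST5 at 4.25 ± 3.08 and 6.86 ± 2.03 (SD, n = 3). CST1 belongs to a cluster of near-identical genes and may share reads with them.

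Among the proteases of the kind that cystatins inhibit, most called changes were small. Of 12 cysteine cathepsins and legumain tested, 4 rose, 2 fell and 6 did not pass, with a median log2 difference of 0.23. The called share was 50%, against 24.0% of all genes tested. CTSH and CTSL, lysosomal proteases inhibited by cystatin A, rose 1.30-fold and 1.20-fold, to 1152 ± 28.3 and 1373 ± 39.1 (SD, n = 3; adjusted p = 0.000123 and 0.00255 in limma). CTSB, the most abundant of them in counts, fell 1.14-fold, from 6805 ± 121 to 5956 ± 78.4 (SD, n = 3; adjusted p = 0.00486). CTSZ fell 1.40-fold and CTSF rose 2.27-fold, from 25.7 ± 7.46 to 58.4 ± 7.45 (SD, n = 3; adjusted p = 0.000631). LGMN, legumain, rose 1.16-fold (adjusted p = 0.00719, and 0.0538 without CDO1 replicate 3). CTSV and CTSC were within 1.05-fold of mock and did not pass (adjusted p = 0.961 and 0.584).

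Of 14 tested proteases and inhibitors of cornification and desquamation, 6 rose, 3 fell and 5 did not pass. The called share was 64.3%, against 24.0% of all genes tested. ST14, the membrane serine protease matriptase, rose 1.22-fold, PRSS8, the protease prostasin, 1.19-fold, and SPINT1, an inhibitor of both, 1.31-fold, with adjusted p of 0.000624, 0.00741 and 6.86e-06 in limma. SPINT2, a further inhibitor, rose 1.14-fold (adjusted p = 0.0121), and did not pass without mock replicate 1 (0.0903), CDO1 replicate 2 (0.0647) or CDO1 replicate 3 (0.0522). KLK6 rose 1.27-fold and KLK7, a kallikrein that sheds corneocytes, fell 1.47-fold, from 217 ± 6.88 to 147 ± 0.639 (SD, n = 3; adjusted p = 0.000303). KLK13 was at 11.7, 9.75 and 4.53 normalised counts in mock and at 0.986, 1.09 and 0 with CDO1 (adjusted p = 0.0023 in limma). It rests on 13, 10 and 4 reads in mock against 1, 1 and 0 with CDO1. Its log2 difference was -2.50 in limma and -0.47 in the authors' deposited comparison, whose fold changes are moderated. SPINK5, the kallikrein inhibitor LEKTI, was at 1.79, 2.93 and 3.39 in mock and 7.89, 17.5 and 7.35 with CDO1 (adjusted p = 0.015), and at an adjusted p of 0.108 without CDO1 replicate 2 and 0.0559 without mock replicate 1. KLK8 was at 19.5 ± 3.90 and 7.86 ± 4.58 (SD, n = 3; adjusted p = 0.0144), and it did not pass without mock replicate 3 (0.0615), CDO1 replicate 1 (0.0674) or CDO1 replicate 3 (0.0593).

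The lipid layer bound to the outside of the envelope is made by ceramide enzymes and lipoxygenases. Of 15 such genes tested, 5 rose, 4 fell and 6 did not pass, with a median log2 difference of -0.01. The called share was 60%, against 24.0% of all genes tested. CERS4, a ceramide synthase, fell 2.74-fold, from 197 ± 14.8 to 72.1 ± 3.03 (SD, n = 3; adjusted p = 2.26e-08 in limma). CYP4F22, the hydroxylase of ultra-long fatty acids, fell 2.56-fold, from 73.0 ± 6.94 to 28.5 ± 5.12 (SD, n = 3; adjusted p = 3.18e-05). STS, the steroid sulfatase, rose 1.40-fold (adjusted p = 0.000763) and ABHD5, a lipase co-activator, 1.25-fold (adjusted p = 0.00484). ALOX12B and ALOXE3, the lipoxygenases that act on envelope ceramides, did not pass (adjusted p = 0.509 and 0.576).

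Of 21 tested transcription regulators of squamous and surface epithelial differentiation, 9 rose, 2 fell and 10 did not pass, with a median log2 difference of 0.13. The called share was 52.4%, against 24.0% of all genes tested. GRHL3, a grainyhead factor of barrier formation, stood at 481, 401 and 437 normalised counts in mock and 931, 906 and 894 with CDO1. It rose 2.07-fold (adjusted p = 1.2e-09 in limma), and its relative GRHL2 rose 1.19-fold (adjusted p = 0.00471), while GRHL1 did not pass (adjusted p = 0.402). The epithelial ETS factors EHF and ELF3 rose 1.63-fold and 1.47-fold and the Krüppel-like factor KLF5 1.41-fold, with adjusted p of 3.89e-09, 3.1e-07 and 2.74e-07. NOTCH3, a receptor of the Notch pathway, fell 1.99-fold, from 970 ± 121 to 488 ± 19.0 (SD, n = 3; adjusted p = 1.26e-08). The Notch receptors split, as NOTCH1 was called lower (log2 difference -0.37, adjusted p = 0.00595) and NOTCH2 higher (0.17, adjusted p = 0.0157). NOTCH1 did not pass in DESeq2 (0.083), and NOTCH2 did not pass without mock replicate 1 (0.0773), CDO1 replicate 2 (0.0555) or CDO1 replicate 3 (0.0655). ZNF750 and MAF, regulators of late keratinocyte differentiation, were under 5 normalised counts in both group means. TP63, the master regulator of stratified epithelia, had at most 1 read in any library.

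**Figure D4:**
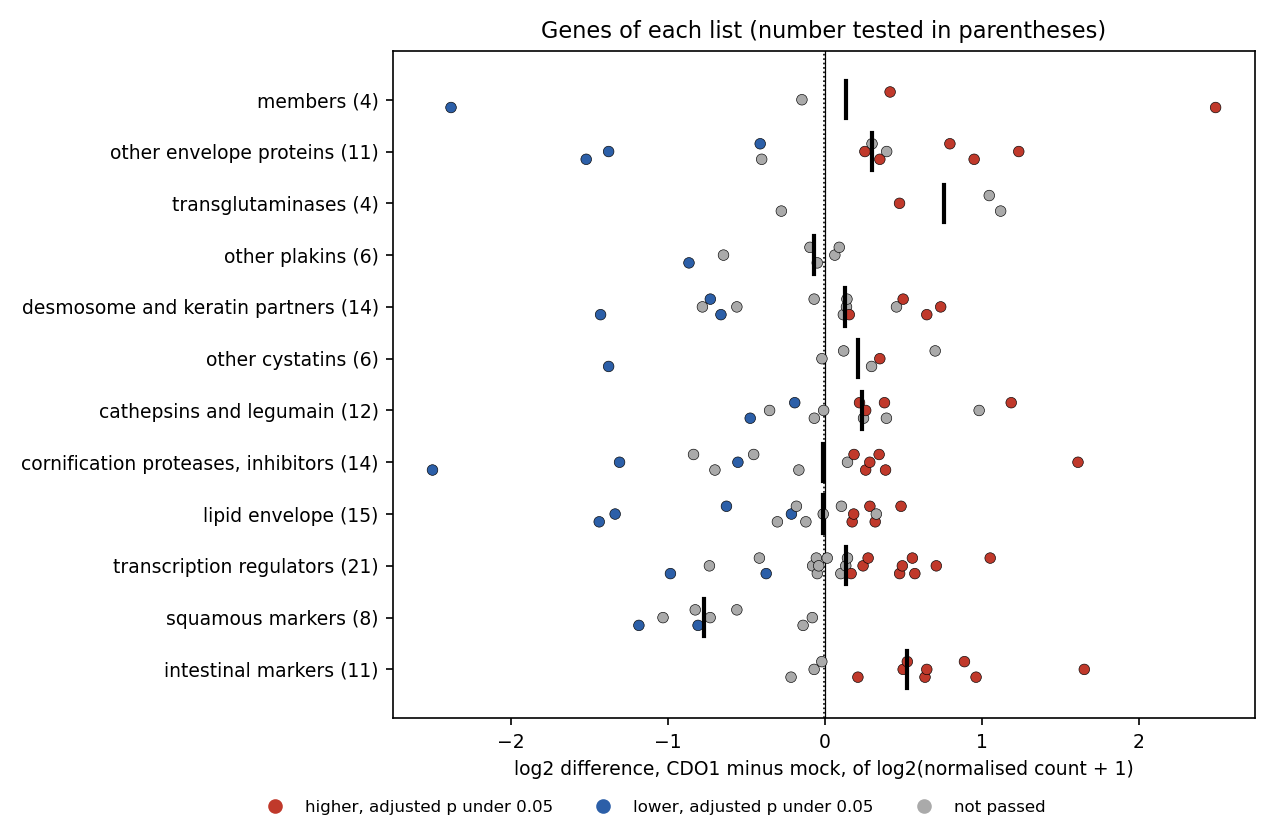
Log2 difference between CDO1 and mock for each tested gene by list, with the number tested in parentheses; red points passed limma's test upward and blue points downward, grey points did not pass, black bars are medians and the dotted line is the median of all genes. Most lists have points on both sides of 0. The squamous markers, most of them scarce, have their median at -0.77 and the intestinal markers at 0.52.

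Most genes listed as intestinal epithelial markers, several of them general to epithelia, were well expressed in these cells. Most markers of stratified squamous cells were scarce. All 11 intestinal markers had a value, 8 rose and none fell, and their summed level was 144619 to 153142 normalised counts in mock and 194264 to 208070 with CDO1. Most of that sum came from KRT8, a keratin of simple epithelia in general, with a mean of 86833 in mock and 122713 with CDO1. KRT18, KRT19, EPCAM and CDH1 are also general to epithelia, so neither the sum nor the 8 rises describe intestinal genes alone. Of the narrower markers, VIL1, CDH17, KRT20 and CDX2 rose, with log2 differences of 1.65, 0.89, 0.96 and 0.52. CDX1 and GPA33 did not pass. CDX1 and GPA33 were scarce, at means of 4.20 and 6.19 in mock and 4.44 and 5.07 with CDO1. Of 16 squamous markers, 14 had a value, 8 were tested, and 2 fell, KRT15 by 0.81 and KRT6A by 1.18 on the log2 scale (adjusted p = 0.000255 and 0.013 in limma). The called share was 25% of squamous markers tested and 72.7% of intestinal markers tested, against 24.0% of all genes tested. KRT6A did not pass without mock replicate 2 (0.0699) or CDO1 replicate 2 (0.0659), and it may share reads with close keratin relatives. The summed squamous level was 1186 to 1264 in mock and 997 to 1145 with CDO1, most of it from KRT10. KRT10 had a log2 difference of -0.14 and did not pass (adjusted p = 0.172 in limma), but was called lower without CDO1 replicate 2 (0.0212). KRT5 was at 18.5 ± 6.03 and 16.8 ± 2.28 (SD, n = 3), and KRT14, the other basal keratin, had at most 1 read in any library. The part of these marker shifts in the differences of the 4 genes was not tested. Of 9 markers of fibroblasts and leukocytes 2 had a value: COL1A1 fell from 225 ± 37.3 to 103 ± 9.99 (SD, n = 3), and MS4A1 had a mean of 1.19 in mock and 0.365 with CDO1. In bulk RNA fewer cells with a transcript and less transcript per cell cannot be told apart.

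Genes next to the 4 on the chromosome were examined for a shared shift, up to the 2 nearest tested protein-coding genes on each side. SLC15A2, 381 kb from CSTA, had a log2 difference of 0.61 (adjusted p = 0.0146 in limma), opposite in sign to that of CSTA. MYCBP2, 209 kb from SCEL, was at 0.12 (adjusted p = 0.172). SLAIN1, 52.6 kb beyond SCEL, was scarce, at 2.55 ± 1.27 and 6.28 ± 1.23 normalised counts (SD, n = 3; adjusted p = 0.123). UBN1, whose end lies 0.147 kb from PPL, had -0.15 (adjusted p = 0.0587).

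Patterns across the 6 libraries were compared with those of other genes by Pearson's r on the log2 scale, as a description. The points are 2 groups of 3, so a high r with SCEL follows for many genes that differ between the groups. Among 13645 genes with a mean of at least 20, those most like SCEL were TM4SF1, LMO7 and EPG5, each with an r of 0.999. LMO7, which encodes a LIM domain protein and lies 1.68 Mb from SCEL on chromosome 13, stood at 799 ± 57.6 and 1255 ± 35.0 normalised counts (SD, n = 3). The most opposite were SRRM3, APCDD1 and SEPTIN5, with an r of -0.998 each, and all 3 were between 0.463 and 0.476 of their mock level with CDO1. For CSTA the closest were SLC20A1, an unnamed gene (ENSG00000260257) and NFIL3, at 0.998, 0.996 and 0.993, and the most opposite ARL6IP6, QARS1 and DNMT3A. SLC20A1 differed little, with a ratio of 0.926, and was lowest in CDO1 replicate 2, the library in which CSTA had 0 reads.

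Among the 4 genes themselves, over the 6 libraries, r was 0.889 between PPL and SCEL, -0.711 between EVPL and SCEL, -0.333 between EVPL and PPL, and -0.741 between CSTA and SCEL. CSTA and PPL had an r of -0.85, and CSTA and EVPL one of 0.184. These values mostly restate the direction of each gene's difference between the groups. Within the groups EVPL and PPL were not opposed: both were highest in mock replicate 2 and lowest in mock replicate 3, and both were highest in CDO1 replicate 2.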

How the data were processed

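RNA-seq libraries of KM12 cells were used, 3 with CDO1 overexpression and 3 mock, grouped by their titles. STAR 2.5.1b, DESeq2 1.10.1 and GRCh38 are named in the submitters' processing notes, and neither a counter nor an annotation release is given in the sources used here. Each gene's deposited signal, as the authors made it, is a read count divided by a size factor. Division by what 1 read is worth in a library returned whole reads for 100% of values (tolerance 0.001 of a read), 17516640 to 22198173 per library. The log2 fold change, p-value and adjusted p-value of the authors' deposited comparison were used as an alternative, per the file headers.

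The main test was limma 3.58.1 (trend, R 4.3.3) on log2 of the normalised count plus 1, with group as the term, for a minimum mean of 1, and Benjamini-Hochberg adjustment at 0.05 ran over all 21775 genes tested. The log2 differences of low genes depend on this scale, in either direction. SCEL had 2.49 in limma against 2.51 in DESeq2, and CSTA had -2.38 against -2.10. Fold values are ratios of mean normalised counts. Because the values are normalised, edgeR 4.0.16 (TMM and RLE) and DESeq2 1.42.0 on recovered reads were alternatives, beside other filters, pseudocounts, equal totals, GC trend removal (span 0.3), the replicate number as a block and each library left out. Tested on simulated data for the comparison of CDO1 with mock, limma found 81% of the 100 genes set to a 1.5-fold change and 97% of the 100 set to a 2-fold change, in 21135 genes. The changed genes were drawn only from those with a mean of at least 20, so recovery of scarcer genes was not measured.

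The members and gene lists were chosen with earlier results of these data known. Some genes are in more than 1 list and are counted in each, so the list counts are not independent. Among them are CSTB and CST6 (envelope proteins and cystatins) and KRT8, KRT18 and KRT19 (partners and intestinal markers). Genes named were the 4 members, up to 5 called genes of a list by smallest p, all genes of short lists, genes at or near 0, genes that overlap a member, and the most alike in pattern; the neighbouring genes and the genes named for a call lost without 1 library were added after the data were seen. Of 27134 identifiers, 26577 had a symbol and 26742 an entry in GENCODE release 29. Of the 4 members, the promoter table used held SCEL. Promoter sequence is from RefSeq. A limit given for a count of 0 covers counting error only. Of the neighbouring genes examined, 1 is not reported here.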

Additional observations from a re-analysis of the deposited data

How the results depend on the processing

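The directions of SCEL, PPL and CSTA held under all 17 alternatives, and that of EVPL reversed under GC trend removal (0.017). The values of SCEL and CSTA moved beyond the spread between libraries in the authors' deposited comparison (1.77 and -0.55), whose fold changes are moderated, and that of PPL with the GC trend removed (0.50). Over all genes, 2467 were higher and 2762 lower in limma, with GC trend removal 3369 and 2943, with equal library totals 2069 and 3079, in DESeq2 2068 and 2228, and with libraries left out 1752 to 2584 and 2093 to 2863. With the GC trend removed the other plakins had 1 higher and 2 lower. In DESeq2 and in the authors' deposited comparison 1 gene each was lower among proteases, regulators and squamous markers, and 0 transglutaminases were higher; with edgeR's RLE 1 transglutaminase was lower. The cause of these shifts was not tested. With 1 library left out, counts ranged from 1 to 2 for cystatins that rose, 3 to 5 for envelope proteins that rose, 3 to 6 and 2 to 4 for lipid genes that rose and fell, 1 to 2 for squamous markers that fell, and 0 to 1 for transglutaminases in each direction.

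With the replicate number as a block 2845 genes were higher and 3073 lower, and EVPL was called lower. Over all genes tested, deviations of libraries with the same number had an r of -0.0053, 0.0263 and 0.00595. Counting noise of low genes enters these values, so they cannot decide whether the numbers pair the samples. Depth limits CSTA, with 0 to 21 reads per library, and the envelope genes near 0.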
